A study of Mus musculus with 24 samples.

Results

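The unfolded protein response and the folding machinery of the endoplasmic reticulum (ER) were followed through 36 genes in the liver and whole brain of mice fed 4 amounts of selenium. The genes were taken from a fixed list of symbols, and all 36 were found among the 21894 genes of the RNA-seq table. The list was chosen with earlier results of these data known, so it is not an independent set. The mice were C57BL/6J males that ate normal chow until, at 8 weeks of age, they were moved for 5 weeks to a diet whose selenium supplement was 0 ppm, 0.1 ppm, 0.4 ppm or, at the highest, 2.25 ppm. All groups therefore carried the same genotype, sex and age, and differed in the selenium of the diet. Each diet gave 3 liver libraries and 3 brain libraries, 24 in all; the libraries of each group are named a, b and c. The labels do not say whether each library came from 1 mouse or whether livers and brains came from the same mice, so the p-values reflect only how far these libraries differ, and that difference may be technical. The 0.1 ppm diet was the shared comparison diet.

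The unfolded protein response adjusts the folding capacity of the ER to the load of new secretory protein. Its sensors sit in the ER membrane: IRE1 (gene Ern1) is a kinase and ribonuclease that splices Xbp1 mRNA, PERK (gene Eif2ak3) is a kinase that slows translation, and ATF6 is a transcription factor released by cleavage. Spliced XBP1 and cleaved ATF6 raise transcription of chaperones, disulfide isomerases and the machinery that removes misfolded protein (ER-associated degradation, ERAD). Hepatocytes, which secrete most plasma proteins, depend on this system heavily. The values are summed over each gene and cannot show Xbp1 splicing, ATF6 cleavage or PERK phosphorylation.

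Several of the genes carry the classical DNA elements of the response just upstream of their starts. Promoter windows from 250 bases before to 50 bases from the start were taken from RefSeq (GRCm38.p6, the mm10 build); 30 of the 36 genes had one, and Atf6, Hyou1, Hspa13, Manf, Derl1 and Sec61a1 were not covered. The ER stress response element (ERSE, letters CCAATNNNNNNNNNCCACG), bound by ATF6 together with NF-Y, was searched on both strands. It was found in windows of 9 of the 30 genes and in 39 of all 32851 windows (0.119%). The second form (ERSE-II, ATTGGNCCACG) was found for 2 genes, Herpud1 and Dnajb11, and in 0.0365% of all windows; in Dnajb11 it lay after the start. The core of the XBP1 element (UPRE, TGACGTG) was found for 1 gene, Hspa5, and in 2.01% of all windows. The CCACG end of the element, which lies inside both ERSE forms, was found alone or within them for 23 genes and in 32.8% of windows. The upstream stretches that hold an ERSE, ERSE-II or UPRE core match are printed because they belong to genes described below, without that of Dnajb11, which lay after the start. Each is given 5′ to 3′ on the strand of its gene, with the ERSE, ERSE-II and UPRE core matches in capitals and 12 bases on either side; a CCACG outside them is in lower case. A match describes the letters only and is not evidence of binding. The search allowed no mismatch, so a window without a match can still hold a variant of the element.
Hspa5: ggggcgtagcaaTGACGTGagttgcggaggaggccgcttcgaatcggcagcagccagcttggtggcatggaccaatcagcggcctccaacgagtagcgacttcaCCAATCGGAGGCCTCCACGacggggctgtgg
Hsp90b1: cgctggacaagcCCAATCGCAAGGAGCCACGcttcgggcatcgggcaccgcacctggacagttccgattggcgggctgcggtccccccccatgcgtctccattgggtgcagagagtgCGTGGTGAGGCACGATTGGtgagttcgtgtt
Calr: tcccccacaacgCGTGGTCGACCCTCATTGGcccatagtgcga
Canx: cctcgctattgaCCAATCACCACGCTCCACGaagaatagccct
Creld2: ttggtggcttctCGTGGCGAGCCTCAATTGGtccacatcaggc
Pdia6: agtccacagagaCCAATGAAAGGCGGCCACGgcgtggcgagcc
Syvn1: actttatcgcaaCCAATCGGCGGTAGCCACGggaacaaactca
Dnajc3: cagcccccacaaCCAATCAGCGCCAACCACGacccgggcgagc
Derl3: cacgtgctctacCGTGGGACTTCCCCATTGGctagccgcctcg
Herpud1: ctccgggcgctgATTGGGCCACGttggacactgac
The Hspa5 stretch (chr2:34771921-34772055, plus strand) held the UPRE core upstream and an ERSE nearer the start. That of Hsp90b1 (chr10:86705521-86705668, minus strand) held 2 ERSE matches in opposite orientations. Calr (chr8:84847063-84847105, minus strand), Creld2 (chr15:88819508-88819550, plus strand) and Derl3 (chr10:75893230-75893272, plus strand) had the element in reverse orientation relative to the gene. Canx (chr11:50325788-50325830, minus strand), Pdia6 (chr12:17266479-17266521, plus strand), Syvn1 (chr19:6046520-6046562, plus strand) and Dnajc3 (chr14:118937815-118937857, plus strand) had it in forward orientation. Herpud1 (chr8:94386365-94386399, plus strand) had the ERSE-II form. The map of matches shows that ERSE matches lay between 212 and 26 bases upstream of the annotated starts.

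**Figure D1:**
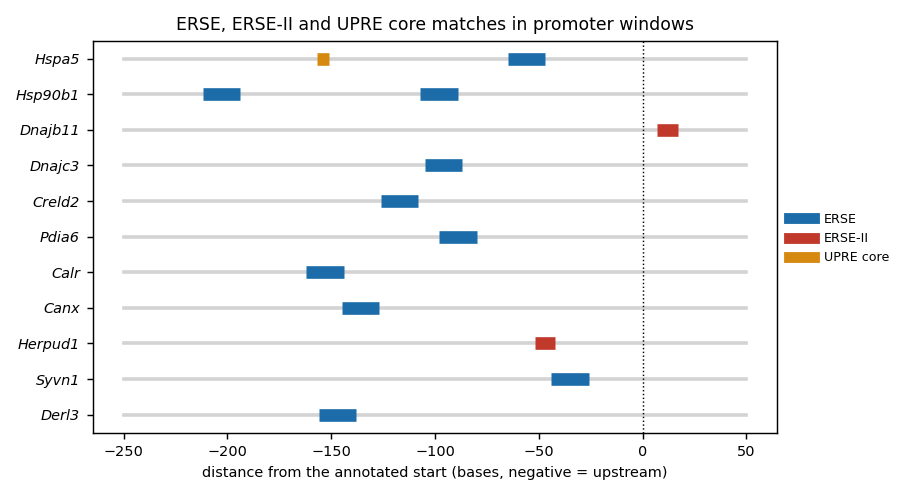
Position of each ERSE, ERSE-II and UPRE core match (coloured blocks) in the promoter windows (grey lines) of the 11 genes that had one; the x axis is the distance in bases from the annotated start, negative upstream. All matches lie upstream of the start except that of Dnajb11.

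Reads on genes ran from 11.5 M to 18.4 M in liver libraries and from 12.9 M to 17.8 M in brain libraries (M, 1e6 reads). The detection floor of 3 reads was worth 3.12 to 5.32 normalized reads in a liver library and 1.75 to 2.34 in a brain library. Hepatocyte markers took 6.52% to 10.1% of reads in liver libraries and neuron markers 0.641% to 0.752% in brain libraries. Some libraries stood apart for the ER genes. Liver 2.25 ppm c was the highest of its group for 27 of the 36 genes, liver 0.1 ppm c likewise for 27 and liver 0 ppm a for 25, while liver 0 ppm c was the lowest of its group for 27; over all genes such shares were 32.6%, 34.5%, 32.3% and 34.9%. Brain 0 ppm a and brain 0.1 ppm b held 89552 and 53169 normalized reads of pituitary markers, against 47.7 to 596 in the other brain libraries.

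Most of these transcripts had higher values in liver than in brain, by an amount that depended on the scale. On the deposited scale, in 33 of the 36 genes all 12 liver libraries lay above all 12 brain libraries, an arrangement seen in 25.6% of all genes. Dnajc10, a disulfide reductase of the ER, had all liver libraries below all brain libraries, and Atf6b and Eif2ak3 overlapped between the tissues. The median liver to brain ratio of the mean normalized reads was 5.22 for the 36 genes and 0.706 for all genes (means + 1). The normalized values summed to 17.8 M to 20.6 M in liver libraries but 9.89 M to 10.5 M in brain libraries. As a share of each library's reads, a scale added after seeing the data, 22 of the genes lay wholly above brain (14.8% of all genes), 4 lay wholly below (54.7%) and 10 overlapped, with a median ratio of 2.74 for the 36 genes and 0.652 for all genes. The 4 below were Dnajc10, Atf6b, Eif2ak3 and Edem3; the mean ratios of Hspa13 and Sel1l also turned to below 1 on this scale, at 0.822 and 0.979. On the deposited scale the ratio was 25.7 for P4hb, the archetypal protein disulfide isomerase, 16.9 for Herpud1, a scaffold of the ERAD ligase complex, and 14.2 for Edem1, a mannosidase-like factor that marks glycoproteins for disposal; by share of reads it was 13.5, 8.80 and 7.43 for these genes. To compare genes roughly with each other, values were expressed per kilobase of exon, counted over the exons of all annotated transcripts. This length can exceed that of the transcript expressed. On this scale P4hb had the highest liver mean at 11108 normalized reads per kilobase, followed by Calr at 5812, Hspa5 at 5320.5, Herpud1 at 4867 and Hsp90b1 at 3817. The lowest were Eif2ak3 at 61.3 and Derl3 at 63.7. In brain the order began with Calr at 1139, Canx at 828 and Hsp90b1 at 715 normalized reads per kilobase. Among bulk samples, fewer cells of a type and less RNA per cell cannot be told apart, here and in every comparison that follows.

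**Figure D2:**
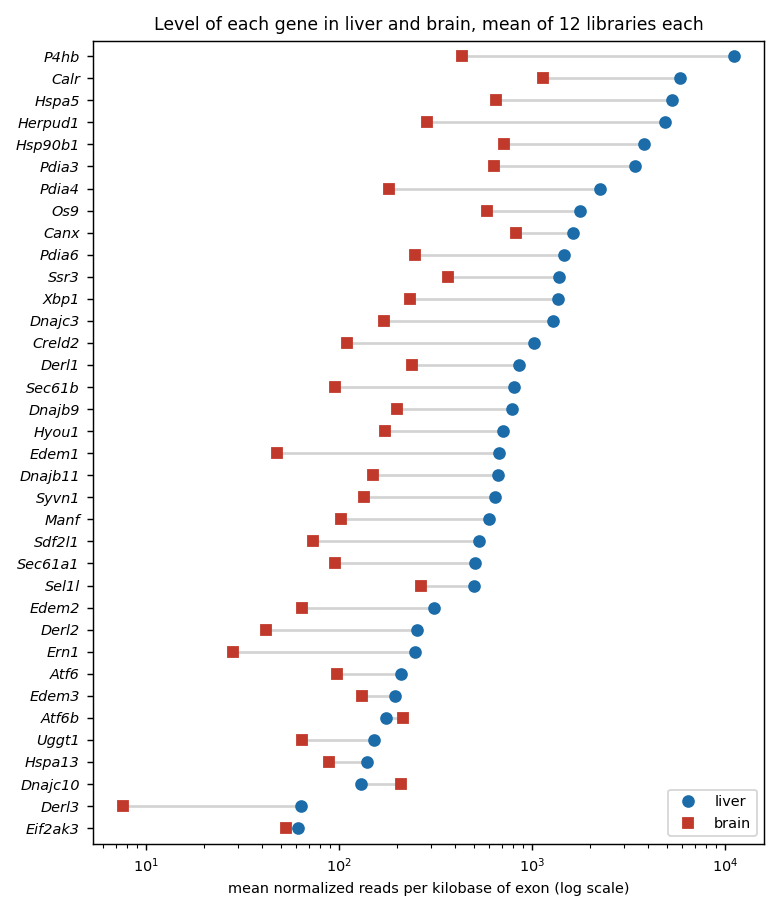
Mean normalized reads per kilobase of exon (log scale) of each of the 36 genes in liver (circles) and brain (squares), 12 libraries each, ordered by the liver mean. On this deposited scale liver lies to the right of brain for every gene but Dnajc10 and Atf6b; by share of reads the ratios of Edem3, Eif2ak3, Hspa13 and Sel1l also turned.

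Raising dietary selenium to 2.25 ppm went with a broad rise of ER folding transcripts in liver. At 2.25 against 0.1 ppm, 17 of the 36 genes rose and 0 fell at an adjusted p below 0.05 (limma on log2(normalized reads + 1), Benjamini-Hochberg over 18945 genes); the background was 4.23% of all genes higher and 3.62% lower. The largest changes among those called were those of Sdf2l1, Creld2, Syvn1, Manf, Hyou1, Hspa5 and Pdia4, from 2.48-fold to 3.79-fold. The median log2 change was 0.41 over the 36 genes and 0.00 over all genes. In 23 of the 36 genes all 3 libraries at 2.25 ppm lay above all 3 at 0.1 ppm, and in 0 below, against 13.3% and 12.5% of all genes. By role, 2 of 5 sensors and transcription factors rose, 6 of 11 chaperones and cofactors, 2 of 4 disulfide isomerases, 4 of 7 lectin and glycoprotein factors, 3 of 6 ERAD genes and 0 of 3 translocon genes.

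Of the sensors, Ern1 had the smallest p of all 36 genes. Its values were 2667, 2145 and 2798 normalized reads at 2.25 ppm, against 1416, 1299 and 1398 at 0.1 ppm. The ranges were well apart, and the log2 change was 0.88 (SE 0.12, adjusted p = 0.000781). Atf6b, the ATF6 relative regarded as a weaker activator, had 530.5, 545 and 578 normalized reads at 2.25 ppm, against 362, 437 and 438 at 0.1 ppm, a log2 change of 0.42 (SE 0.10, adjusted p = 0.0201). Its 2 groups did not overlap, with 0.1 ppm a the lowest of the 6 libraries. The other sensors did not pass the test. Eif2ak3 had 399.6, 409.8 and 444 normalized reads at 2.25 ppm, against 284, 276 and 433 at 0.1 ppm, where library c lay inside the 2.25 ppm range (log2 change 0.37, SE 0.18, adjusted p = 0.266). Atf6 had 2186, 2072 and 1965 normalized reads at 2.25 ppm, against 1949, 1857 and 2066 at 0.1 ppm, with overlapping groups (log2 change 0.08, SE 0.07, adjusted p = 0.58). Xbp1, the transcription factor activated by IRE1, had 4542, 3726 and 4929 normalized reads at 2.25 ppm, against 3598, 3408 and 3021 at 0.1 ppm. Its groups did not overlap, but the log2 change of 0.39 (SE 0.15, adjusted p = 0.147) was not called.

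Among chaperones, BiP (Hspa5), the abundant HSP70 of the ER lumen that also holds the sensors inactive, had 28176, 30663 and 50259.8 normalized reads at 2.25 ppm, against 11642, 12991 and 18332 at 0.1 ppm. Its log2 change was 1.32 (SE 0.24, adjusted p = 0.00482), and library 2.25 ppm c stood far above a and b. Hyou1, the nucleotide exchange factor of BiP, showed the same order of libraries, with 6172, 6607 and 11024 normalized reads at 2.25 ppm, against 2374, 2488 and 3739.7 at 0.1 ppm (log2 change 1.45, SE 0.26, adjusted p = 0.00446). Dnajb11 and Sdf2l1 work together as a BiP cofactor complex, and both rose. Dnajb11 had 2269.8, 2400.3 and 3194 normalized reads at 2.25 ppm, against 1488, 1458 and 1792 at 0.1 ppm (log2 change 0.72, SE 0.14, adjusted p = 0.00739). Sdf2l1 had 637, 789 and 1560.3 normalized reads at 2.25 ppm, against 179, 218 and 367 at 0.1 ppm (log2 change 1.92, SE 0.34, adjusted p = 0.00396). In both genes every library at 2.25 ppm exceeded every library at 0.1 ppm. Manf, a small ER protein that is secreted under stress, had 2651, 2741 and 4471 normalized reads at 2.25 ppm, against 859, 1076 and 1515 at 0.1 ppm (log2 change 1.51, SE 0.25, adjusted p = 0.00245). Its groups were apart, and library c was the highest in each. Creld2, another secreted stress-induced factor, rose by 1.86 (SE 0.41, adjusted p = 0.013), with 1581, 2006 and 3752 normalized reads at 2.25 ppm, against 440.4, 521 and 1089.6 at 0.1 ppm. The 2.25 ppm libraries of Creld2 spread widely, and 0.1 ppm c was more than the other 0.1 ppm libraries, but the groups did not meet. The other genes of this role were not called. Hsp90b1, the HSP90 of the ER, came nearest, with 15594, 16763 and 26672 normalized reads at 2.25 ppm, against 11095, 11600.5 and 13194 at 0.1 ppm (log2 change 0.68, SE 0.20, adjusted p = 0.053). Hsp90b1 was not called in the main limma fit. It was called by edgeR and by limma under some alternatives, such as without liver 0 ppm c (adjusted p = 0.0221). The J-domain cofactors Dnajb9, Dnajc3 and Dnajc10 had log2 changes of 0.34, 0.32 and -0.04, and the HSP70-like Hspa13 of 0.23.

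Of the 4 disulfide isomerases 2 rose. Pdia4 had 6623, 6383 and 11751 normalized reads at 2.25 ppm, against 2781, 2901 and 4011 at 0.1 ppm (log2 change 1.31, SE 0.23, adjusted p = 0.00396). Pdia3, the isomerase that works with the lectin chaperones, rose by 0.56 (SE 0.13, adjusted p = 0.0146). Pdia6 was not called, at 0.39 (SE 0.13, adjusted p = 0.0824). P4hb, the most abundant of the 36 per kilobase, had 32384, 34163 and 34080.2 normalized reads at 2.25 ppm, against 28294, 29864 and 30964 at 0.1 ppm. These groups did not overlap but lay close together, and the log2 change was 0.18 (SE 0.09, adjusted p = 0.296).

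Of the lectin chaperones, which hold newly made glycoproteins, Calr had 17439, 17839.9 and 23396 normalized reads at 2.25 ppm, against 11085, 11209 and 12942 at 0.1 ppm (log2 change 0.73, SE 0.13, adjusted p = 0.00363). Canx, its membrane-bound counterpart, rose by 0.32 (SE 0.09, adjusted p = 0.0353), the smallest change called among the 36. Uggt1, which reglucosylates unfolded glycoproteins and so returns them to these chaperones, rose by 0.44 (SE 0.11, adjusted p = 0.0312). Edem1 had 5212, 5352 and 5784 normalized reads at 2.25 ppm, against 3268, 3645 and 4342 at 0.1 ppm (log2 change 0.55, SE 0.10, adjusted p = 0.0039). The 3 Edem1 libraries of 2.25 ppm lay close together and above the 0.1 ppm range. Its paralogs Edem2 and Edem3 had log2 changes of 0.07 and 0.16, and Os9, a lectin that delivers substrates to the ERAD ligase, of 0.09; these 3 were not called.

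Syvn1 (HRD1), the ubiquitin ligase at the centre of ERAD, had 3964, 4715 and 8926 normalized reads at 2.25 ppm, against 1428, 1451 and 2282 at 0.1 ppm (log2 change 1.71, SE 0.27, adjusted p = 0.0022). Even the lowest 2.25 ppm library was above the highest at 0.1 ppm. Sel1l, the stabilising partner of HRD1, had 5591, 4999 and 7962 normalized reads at 2.25 ppm, against 3136, 3033 and 3685 at 0.1 ppm (log2 change 0.89, SE 0.15, adjusted p = 0.00316). Derl2, a derlin of the same complex, had 2281, 2006 and 2794 normalized reads at 2.25 ppm, against 1583, 1624 and 1550.1 at 0.1 ppm (log2 change 0.56, SE 0.11, adjusted p = 0.00589). Both genes were apart between the diets. Herpud1, although a member of that complex, had 11834, 14302 and 13682 normalized reads at 2.25 ppm, against 11748, 12944 and 15492 at 0.1 ppm. Its ranges overlapped and its log2 change was -0.01 (SE 0.29, adjusted p = 0.999). Derl1 was at -0.06. Derl3, the lowest of the 36 apart from Eif2ak3 per kilobase, had 102, 85.2 and 450.1 normalized reads at 2.25 ppm, against 126, 48.6 and 71.9 at 0.1 ppm; library 2.25 ppm c stood far above the other 5, and the gene was not called (log2 change 1.04, SE 0.53, adjusted p = 0.28). The translocon genes Sec61a1, Sec61b and Ssr3, which form or assist the channel into the ER, had log2 changes of 0.10, -0.04 and 0.13. None of these 3 was called, with 0 at an unadjusted p below 0.05 by limma and 0 called by edgeR.

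**Figure D3:**
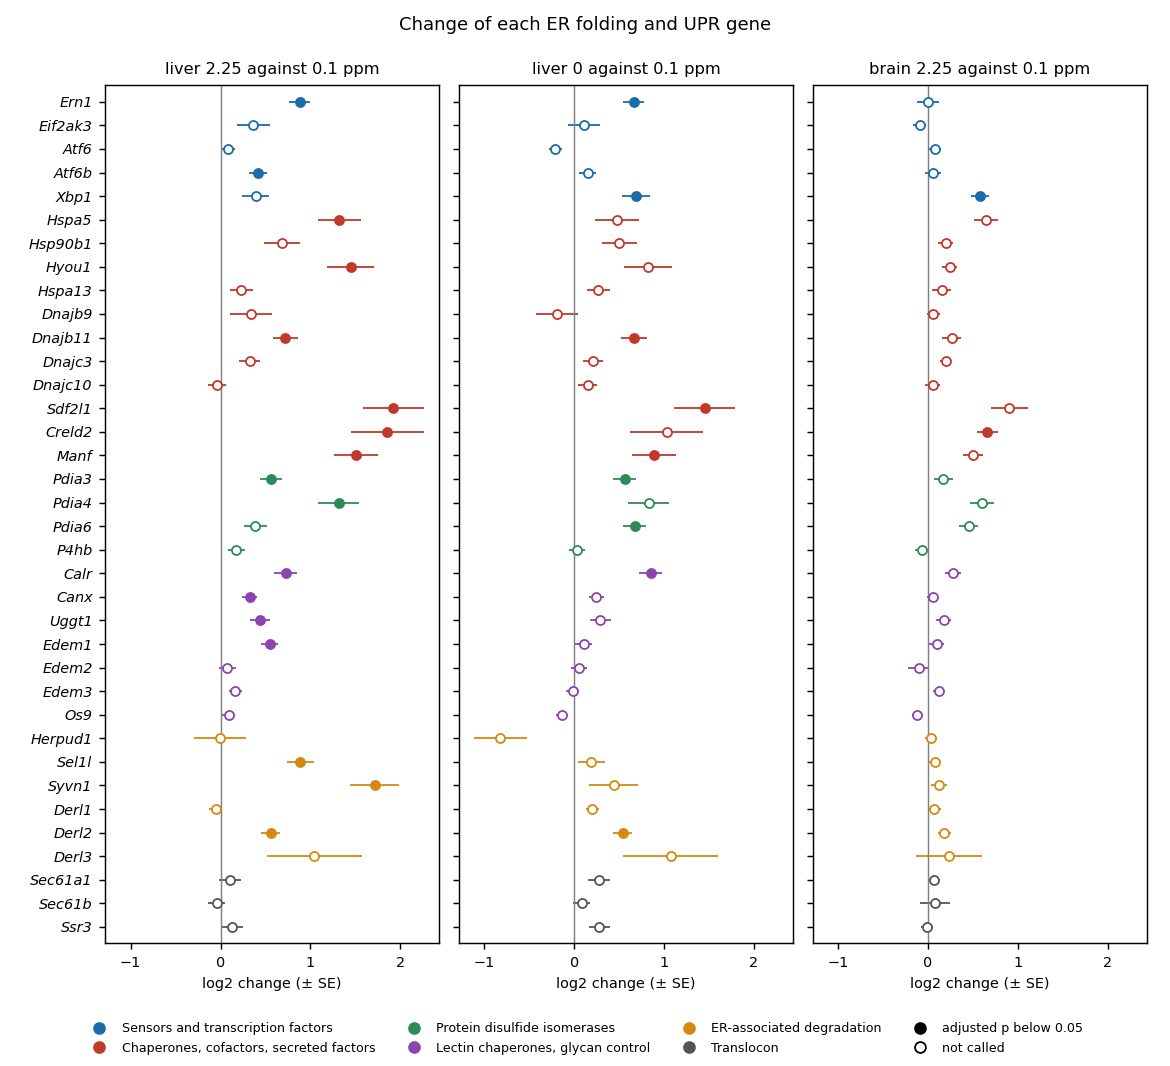
Log2 change with its standard error for each of the 36 genes, coloured by role, at 2.25 against 0.1 ppm in liver, 0 against 0.1 ppm in liver and 2.25 against 0.1 ppm in brain; filled circles are genes with an adjusted p below 0.05. Filled circles number 17 in the first panel, 9 in the second and 2 in the third, all to the right of 0.

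Leaving out liver 2.25 ppm c or liver 0.1 ppm a lowered the count from 17 to 12, and leaving out liver 0.1 ppm b to 13; the calls of Canx, Creld2, Pdia3 and Uggt1 were lost in all 3 cases and that of Atf6b in 2. Clock and feeding genes differed between the same libraries: 4 of 19 clock genes were higher and 5 lower, among them Arntl at 3.06 and Dbp at -2.99, and 5 of 12 feeding and fasting genes were higher and 4 lower, among them Fasn at 2.49 and Pck1 at -1.83. When 2 clock-gene components entered the fit as covariates, 0 of the 36 genes and 0 of all genes were called; diet explained 66.3% and 94.1% of the variance of these components in liver, so dose and clock-gene levels cannot be told apart, and the labels used here give no hour of collection or feeding state. Hepatocyte markers had 0 of 11 genes called by limma and 0 by edgeR, with 2 at an unadjusted p below 0.05. Cholangiocyte markers had 1 of 7 called higher by limma and by edgeR, with all 7 log2 changes at or above 0.13, and summed to 728 to 1362 normalized reads at 2.25 ppm, against 883 to 947 at 0.1 ppm; their part in the result was not tested. Plasma and B cell markers summed to 144, 110.0 and 267 normalized reads at 2.25 ppm, against 189, 240.1 and 280.1 at 0.1 ppm, with none of its 8 measured genes at 0 in liver. Log2 changes of these 8 genes ran from -1.32 to -0.31. Limma and edgeR called 0 of them, and 2 had an unadjusted p below 0.05. The part of these markers in the result was not tested.

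Genes with and without an ERSE were found on both sides of the test. Of the 9 genes with the element, 5 rose (Hspa5, Calr, Canx, Creld2 and Syvn1) and Hsp90b1, Dnajc3, Pdia6 and Derl3 were not called; their median log2 change was 0.73, with a range of 0.32 to 1.86. Of the 21 genes with a window but no exact ERSE match, 10 rose, with a median of 0.39 and a range of -0.04 to 1.92. Sdf2l1, the gene with the largest change, was among those without an exact ERSE match in the window. Herpud1, with the ERSE-II form, had a log2 change of -0.01.

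**Figure D4:**
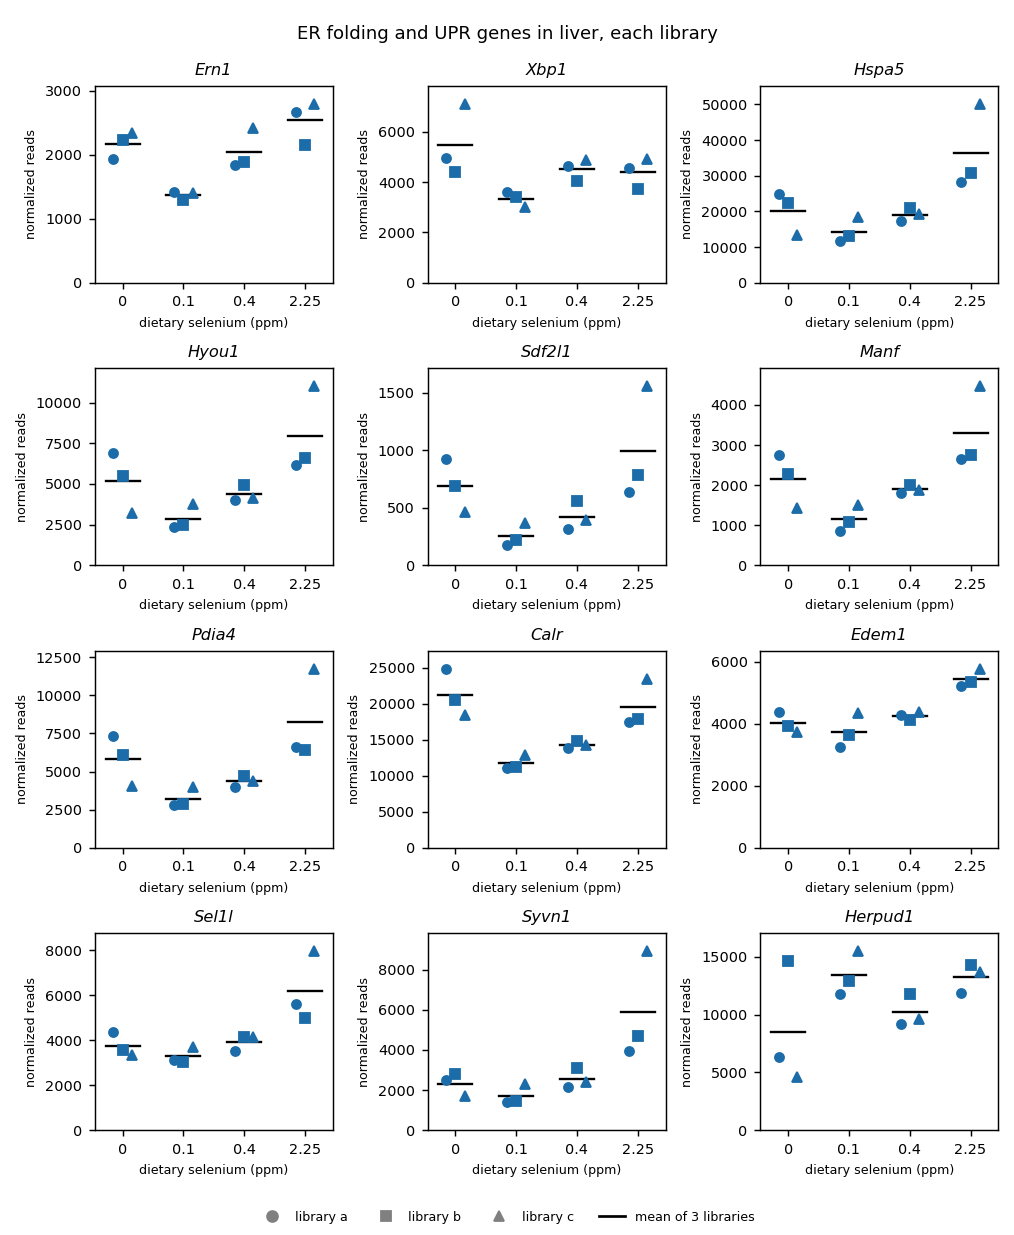
Normalized reads of 12 of the genes in every liver library (symbols a, b and c) at 0, 0.1, 0.4 and 2.25 ppm selenium, with the mean of 3 libraries as a line. The 0.1 ppm mean is the lowest in every panel but that of Herpud1; Calr and Xbp1 have their highest mean at 0 ppm, and Herpud1 at 0 ppm has library b far above a and c.

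Between the 2 highest diets none of the genes was called in liver. Of the 36 log2 changes 29 were above 0, against 52.3% of all genes. At 2.25 against 0.4 ppm 0 of the 36 genes were called by limma and 0 by edgeR, where 0.0317% of all genes were higher and 0.0211% lower. At an unadjusted p below 0.05 there were 19 of the 36, and the share of all genes at that level was not counted. The median log2 change was 0.29 for the 36 genes and 0.01 for all genes. In 20 genes all 2.25 ppm libraries exceeded all 0.4 ppm libraries, against 11.2% of all genes. Derl1 and Edem2 were the 2 that lay wholly below, an arrangement seen in 6.85% of all genes. Hspa5 had 28176, 30663 and 50259.8 normalized reads at 2.25 ppm, against 17408, 20880.3 and 19146 at 0.4 ppm (log2 change 0.88, SE 0.24, adjusted p = 0.224). Syvn1 had 3964, 4715 and 8926 normalized reads at 2.25 ppm, against 2159, 3078 and 2416 at 0.4 ppm (log2 change 1.13, SE 0.27, adjusted p = 0.174). In both genes the groups were apart. The log2 changes of Ern1 and Xbp1 over the same step were 0.31 and -0.05.

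At 0.4 against 0.1 ppm in liver 1 gene of the 36 was called. Ern1 rose by 0.57 (SE 0.12, adjusted p = 0.0341), with 1833, 1886 and 2416 normalized reads at 0.4 ppm, against 1416, 1299 and 1398 at 0.1 ppm. The groups were apart. No gene of the 36 fell; 12 had an unadjusted p below 0.05, and the background was 0.549% of all genes higher and 0.94% lower. The median log2 change was 0.20 for the 36 genes and -0.01 for all genes. Hspa5 had 17408, 20880.3 and 19146 normalized reads at 0.4 ppm, against 11642, 12991 and 18332 at 0.1 ppm, where library c lay within the 0.4 ppm range (log2 change 0.44, SE 0.24, adjusted p = 0.415). Xbp1 had 4657, 4045 and 4869.6 normalized reads at 0.4 ppm, against 3598, 3408 and 3021 at 0.1 ppm, groups that were apart (log2 change 0.44, SE 0.15, adjusted p = 0.171). Eif2ak3 and Atf6 had log2 changes of 0.20 and 0.01. The Ern1 call was lost without liver 0.1 ppm a, b or c and without liver 0.4 ppm b or c. Without liver 0 ppm c 2 genes were called, and with only the 6 libraries compared 5 of the genes were called.

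The diet without added selenium also went with higher ER folding transcripts in liver; Calr (calreticulin) had the smallest p, and Sdf2l1 the largest change among those called. At 0 against 0.1 ppm, 9 of the 36 genes rose and 0 fell; the background was 1.82% of all genes higher and 4.31% lower. Over all genes 345 of 1161 calls were higher, and with quantile normalization 445 of 1077. Those that rose were Calr, Ern1, Pdia6, Derl2, Dnajb11, Xbp1, Pdia3, Sdf2l1 and Manf. The median log2 change was 0.28 for the 36 genes and -0.01 for all genes, and 20 genes had an unadjusted p below 0.05. In 12 genes all 0 ppm libraries lay above all 0.1 ppm libraries and in 1, Atf6, below, against 8.90% and 12.9% of all genes. This comparison shares its 0.1 ppm libraries with the 2.25 ppm comparison, so the values of the 2 are given side by side and not as separate support.

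Calr had 24914, 20476 and 18509 normalized reads at 0 ppm, against 11085, 11209 and 12942 at 0.1 ppm, a log2 change of 0.85 (SE 0.13, adjusted p = 0.00155); at 2.25 against 0.1 ppm its change was 0.73. Pdia6, an isomerase that also binds IRE1, had 8156, 6989.5 and 6247 normalized reads at 0 ppm, against 4767, 4135 and 4476 at 0.1 ppm (log2 change 0.67, SE 0.13, adjusted p = 0.00719). For both genes the groups were clearly apart. Pdia3 had 14291, 12609 and 10855 normalized reads at 0 ppm, against 8097, 8270.4 and 9123 at 0.1 ppm (log2 change 0.56, SE 0.13, adjusted p = 0.0173). Ern1 had 1936, 2234 and 2342 normalized reads at 0 ppm, against 1416, 1299 and 1398 at 0.1 ppm (log2 change 0.66, SE 0.12, adjusted p = 0.00538). Xbp1, not called at 2.25 ppm, had 4941, 4398 and 7119 normalized reads at 0 ppm, against 3598, 3408 and 3021 at 0.1 ppm (log2 change 0.69, SE 0.15, adjusted p = 0.017). Library 0 ppm c was the highest for both Ern1 and Xbp1, while it was the lowest for Pdia3, Pdia6 and Calr. Derl2 had 2331, 2559 and 2048 normalized reads at 0 ppm, against 1583, 1624 and 1550.1 at 0.1 ppm (log2 change 0.54, SE 0.11, adjusted p = 0.00905). Dnajb11 had 2999.7, 2494 and 2073 normalized reads at 0 ppm, against 1488, 1458 and 1792 at 0.1 ppm (log2 change 0.67, SE 0.14, adjusted p = 0.0132). Sdf2l1 had 925, 687 and 464 normalized reads at 0 ppm, against 179, 218 and 367 at 0.1 ppm (log2 change 1.45, SE 0.34, adjusted p = 0.0221). None of these 3 overlapped between the diets. Manf had 2759, 2268 and 1421 normalized reads at 0 ppm, against 859, 1076 and 1515 at 0.1 ppm, where 0 ppm c fell within the 0.1 ppm range (log2 change 0.89, SE 0.25, adjusted p = 0.0474).

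BiP was not called at 0 ppm. Hspa5 had 24794, 22391 and 13321 normalized reads at 0 ppm, against 11642, 12991 and 18332 at 0.1 ppm; libraries a and b were above and c within the 0.1 ppm range (log2 change 0.47, SE 0.24, adjusted p = 0.317). Pdia4, Hyou1 and Creld2 had the same order of libraries, a highest and c lowest, although the groups of Pdia4 did not overlap; their log2 changes were 0.83 (SE 0.23, adjusted p = 0.0514), 0.82 (SE 0.26, adjusted p = 0.0886) and 1.03 (SE 0.41, adjusted p = 0.172). Syvn1, Sel1l and Edem1, all called at 2.25 ppm, had log2 changes at 0 ppm of 0.44, 0.19 and 0.10 and were not called; the difference between the 0 and 2.25 ppm diets was not tested. Atf6 had 1815, 1636 and 1617 normalized reads at 0 ppm, against 1949, 1857 and 2066 at 0.1 ppm, wholly below but not called (log2 change -0.21, SE 0.07, adjusted p = 0.119). Eif2ak3 had 300.5, 442 and 319.9 normalized reads at 0 ppm, against 284, 276 and 433 at 0.1 ppm, with overlap (log2 change 0.11, SE 0.18, adjusted p = 0.812). Herpud1 had 6293, 14671 and 4616 normalized reads at 0 ppm, against 11748, 12944 and 15492 at 0.1 ppm. Libraries a and c were far below the 0.1 ppm range and b inside it, and the gene was not called (log2 change -0.82, SE 0.29, adjusted p = 0.126). Without liver 0 ppm b, Herpud1 was called lower, at -1.30 (adjusted p = 0.000421). Dnajb9 also had its highest 0 ppm value in library b, above the 0.1 ppm range, and its lowest in c, below that range, with 1516, 2597 and 1127 normalized reads at 0 ppm, against 1459.7, 1768 and 2547 at 0.1 ppm (log2 change -0.19, SE 0.23, adjusted p = 0.737).

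The number called at 0 ppm moved with single libraries. It was 18 without liver 0 ppm c, 5 without liver 0 ppm a and 4 without liver 0.1 ppm b, and 0 with the clock components as covariates. Beside these genes, 5 of 11 hepatocyte markers were called lower at 0 ppm, and hepatocyte markers together took 6.52% to 7.86% of reads at 0 ppm, against 8.46% to 10.1% at 0.1 ppm. Cholangiocyte markers, with 1 of 7 called higher, summed to 1356 to 1949.6 normalized reads at 0 ppm, against 883 to 947 at 0.1 ppm. Liver endothelial markers, with 2 of 8 called lower, summed to 5025 to 5477.5 normalized reads at 0 ppm, against 6166 to 6648 at 0.1 ppm. Stellate and fibroblast markers had 1 of 7 called lower, and their sums overlapped, at 4996 to 6647 normalized reads at 0 ppm, against 5321 to 5881 at 0.1 ppm. Of clock genes 2 of 19 were higher and 8 lower. Of 12 feeding and fasting genes 1 was higher, Fasn at 0.69, and 2 were lower, Ppargc1a at -1.77 and Lpin1 at -1.70. These genes summed to 54943 to 97258 normalized reads at 0 ppm, against 119226 to 131202 at 0.1 ppm. The part of the cell type markers and of the feeding and fasting genes in the result was not tested. Dose and clock-gene levels cannot be told apart here either.

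Summed over the 36 genes, ER transcripts took 1.18%, 1.08% and 0.930% of all gene reads in liver at 0 ppm, 0.756%, 0.753% and 0.855% at 0.1 ppm, 0.899%, 0.965% and 0.892% at 0.4 ppm, and 1.03%, 1.06% and 1.48% at 2.25 ppm. The 0.1 ppm libraries were the 3 lowest of the 12. In brain the share was between 0.328% and 0.399% in all 12 libraries. There the lowest at 2.25 ppm, 0.354%, was above the highest at 0.1 ppm, 0.341%, and so was the lowest at 0 ppm, 0.356%.

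**Figure D5:**
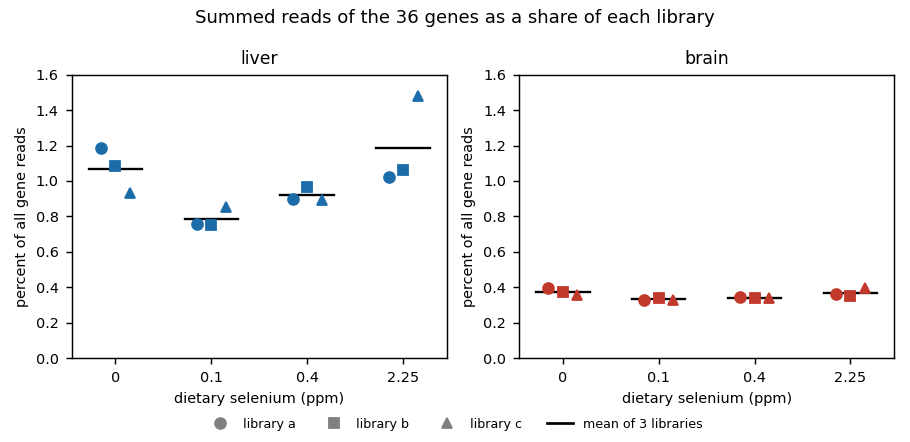
Summed reads of the 36 genes as a percent of all gene reads in each library (symbols a, b and c) by dietary selenium, liver on the left and brain on the right, with group means as lines. In liver the 0.1 ppm libraries lie lowest, at 0.753% to 0.855%, and library 2.25 ppm c highest, at 1.48%.

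In brain the called genes at 2.25 ppm were the transcription factor Xbp1 and the secreted factor Creld2. At 2.25 against 0.1 ppm, 2 of the 36 genes rose, Xbp1 and Creld2, and 0 fell, where the background was 0.227% of all genes higher and 0.208% lower. A further 12 genes had an unadjusted p below 0.05, for 14 in all. The median log2 change was 0.12 for the 36 genes and 0.00 for all genes. In 15 genes all 2.25 ppm libraries lay above all 0.1 ppm libraries, against 9.13% of all genes. P4hb and Os9 lay wholly below, an arrangement seen in 9.35% of all genes. Xbp1 had 836, 838 and 1067 normalized reads at 2.25 ppm, against 600.1, 634 and 593 at 0.1 ppm (log2 change 0.58, SE 0.10, adjusted p = 0.0273). Creld2 had 179, 154 and 216 normalized reads at 2.25 ppm, against 117, 110.5 and 116 at 0.1 ppm (log2 change 0.66, SE 0.12, adjusted p = 0.0306). Hspa5 had 3091, 2872 and 4219 normalized reads at 2.25 ppm, against 2043, 2296 and 2087 at 0.1 ppm (log2 change 0.65, SE 0.14, adjusted p = 0.059). All 3 genes had groups that were apart, though Hspa5 missed the threshold. Sdf2l1, Pdia4, Manf and Pdia6 had log2 changes of 0.90 (SE 0.21, adjusted p = 0.0799), 0.60 (SE 0.13, adjusted p = 0.0723), 0.50 (SE 0.11, adjusted p = 0.0751) and 0.45 (SE 0.11, adjusted p = 0.0955). None of the membrane sensors was called. Ern1 had 233, 233 and 221 normalized reads at 2.25 ppm, against 205, 264 and 223 at 0.1 ppm (log2 change 0.00, SE 0.13, adjusted p = 0.995). Eif2ak3 had 332, 310.3 and 297 normalized reads at 2.25 ppm, against 347, 333 and 322 at 0.1 ppm (log2 change -0.09, SE 0.07, adjusted p = 0.616). Atf6 had 852, 981 and 972 normalized reads at 2.25 ppm, against 892, 854 and 917 at 0.1 ppm (log2 change 0.07, SE 0.08, adjusted p = 0.731). Ranges overlapped for Ern1, Eif2ak3 and Atf6. The calls of Xbp1 and Creld2 were both lost when brain 0.1 ppm a, b or c, 0.4 ppm b, or 2.25 ppm a or c was left out; that of Xbp1 was also lost without 2.25 ppm b, and that of Creld2 without 0.4 ppm c. Without the 2 libraries rich in pituitary markers, brain 0.1 ppm b and brain 0 ppm a, the changes were 0.60 for Xbp1 (adjusted p = 0.0861) and 0.63 for Creld2 (adjusted p = 0.117). Brain endothelial markers had 1 of 5 called higher. They summed to 2573 to 2970 normalized reads at 2.25 ppm, against 2224 to 2498 at 0.1 ppm. Choroid plexus markers had 0 of 7 called by limma and by edgeR. Their log2 changes ran from -1.01 to -0.20, with 2 at an unadjusted p below 0.05. Neuron, astrocyte, oligodendrocyte and microglia markers had 0 called by limma and by edgeR. The part of these markers in the result was not tested.

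At the other doses brain gave no call. At 0.4 against 0.1 ppm 0 of the 36 genes passed in limma and 0 in edgeR, and 2 had an unadjusted p below 0.05; 0.00473% of all genes were called higher and 0.00473% lower. Xbp1 had 692, 726 and 723 normalized reads at 0.4 ppm, against the 593 to 634 of 0.1 ppm given above, with a log2 change of 0.23, and that of Hspa5 was 0.20. At 0 against 0.1 ppm 0 of the 36 genes passed in limma and 0 in edgeR, and 11 had an unadjusted p below 0.05; 0.00947% of all genes were called higher and 0.0189% lower. The median log2 change was 0.10 for the 36 genes and -0.01 for all genes. Hspa5 had 3394, 3119 and 2421 normalized reads at 0 ppm, against 2043, 2296 and 2087 at 0.1 ppm (log2 change 0.46, SE 0.14, adjusted p = 0.476). Xbp1 had 834, 861 and 692 normalized reads at 0 ppm, against 600.1, 634 and 593 at 0.1 ppm (log2 change 0.38, SE 0.10, adjusted p = 0.418). Both genes had all 0 ppm libraries above all 0.1 ppm libraries. Ern1, Eif2ak3 and Atf6 had log2 changes of 0.06, -0.10 and -0.02.

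The change at 2.25 against 0.1 ppm was then compared between the tissues in 1 fit over all 24 libraries. At an adjusted p below 0.05 the liver change exceeded the brain change for 4 of the 36 genes, and for 0 the reverse. The background was 1.3% of all genes higher and 1.39% lower. Syvn1 led with a difference of 1.59 (SE 0.33, adjusted p = 0.0106), from a liver change of 1.71 and a brain change of 0.12. In brain Syvn1 had 667, 623 and 761 normalized reads at 2.25 ppm, against 652, 617 and 609 at 0.1 ppm, where 2.25 ppm b lay inside the 0.1 ppm range. Ern1 differed by 0.88 (SE 0.18, adjusted p = 0.0118), Sel1l by 0.81 (SE 0.18, adjusted p = 0.0178) and Hyou1 by 1.21 (SE 0.31, adjusted p = 0.0423). The Hyou1 difference was lost in 19 of 32 alternatives, among them the omission of any 1 of the 9 brain libraries from a supplemented diet. The Sel1l difference was lost without brain 0.1 ppm a, and that of Ern1 with quantile normalization. Hspa5 differed by 0.68 (SE 0.31, adjusted p = 0.31) and Xbp1 by -0.18 (SE 0.20, adjusted p = 0.736), neither called. For the other 32 genes the test did not show that the tissues differed.

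Other ER gene lists are given against the same background, 4.23% of all genes higher and 3.62% lower in liver at 2.25 against 0.1 ppm. Of 16 genes of the ATF4 and PERK branch 2 were higher and 1 lower in liver at 2.25 against 0.1 ppm, with a median of -0.29: Ddit3 (CHOP) at 1.20 (SE 0.20, adjusted p = 0.00262), Atf4 at 0.67 (SE 0.11, adjusted p = 0.00328) and Cebpb at -1.09 (SE 0.15, adjusted p = 0.00104). N-glycan transfer and trimming had 4 of 18 higher, led by Magt1, an oxidoreductase of the oligosaccharyltransferase, at 0.68 (SE 0.09, adjusted p = 0.000863), and Mlec, an ER lectin, at 0.63 (SE 0.12, adjusted p = 0.00512). The list of other disulfide and proline folding enzymes had 2 of 21 higher. They were the oxidase Ero1lb at 0.79 and Dnajc1, a J-domain protein and not such an enzyme, at 0.41. Other ERAD genes had 1 of 18 higher, Ubxn4 at 0.38, and 1 lower, Ubxn8 at -0.25. Genes of COPII and ER exit had 1 of 18 higher, the coat component Sec31a at 0.29, and 1 lower, the coat component Sec23a at -0.30. Of 7 measured selenoproteins of the ER 1 was higher, Selenoi, a phospholipid synthesis enzyme, at 0.49 (SE 0.09, adjusted p = 0.00387). Translocation and signal peptide removal had 0 of 19 called by limma and by edgeR, with 3 at an unadjusted p below 0.05. Membrane-bound transcription factors and their proteases had 0 of 16 called by limma and by edgeR, with 4 at an unadjusted p below 0.05. At 0 against 0.1 ppm, where 1.82% of all genes were higher and 4.31% lower, the same lists gave 1 higher and 2 lower for the ATF4 and PERK branch (Atf5 at 1.18, Ddit4 at -1.90 and Cebpb at -0.62), 2 higher for N-glycans, 1 higher for other folding enzymes and 1 higher for selenoproteins, again Selenoi, at 0.53. COPII and ER exit had 0 higher and 2 lower of 18, the coat components Sec24a at -0.31 (SE 0.07, adjusted p = 0.0237) and Sec23a at -0.34 (SE 0.08, adjusted p = 0.024). Translocation had 0 of 19 called by limma and by edgeR, with 4 at an unadjusted p below 0.05. Membrane-bound factors had 0 of 16 called by limma and by edgeR, with 3 at an unadjusted p below 0.05. Other ERAD genes had 0 of 18 called by limma and by edgeR, with 5 at an unadjusted p below 0.05.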

How the data were processed

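Total RNA of liver and whole brain was sequenced from stranded libraries, per the labels' protocols. Build mm10, bcl2fastq 2.17, Trimmomatic 0.33, STAR 2.5.2b, RSEM 1.3.0 and limma 3.34.5 are named, without roles, in the submitters' processing notes. The deposited signal values (normalized reads) are each library's reads per gene divided by 1 factor by the authors; all 525456 values came out as whole reads within 0.01 of a read. The floor of 3 reads covers counting error only. Exon lengths came from the GENCODE annotation, as the union of the exons of all transcripts of a gene. Libraries of a group differed beyond sampling noise in all 24 pairs (chi-square per gene 4.01 to 56.5), and each was counted once. That spread does not show whether they came from separate mice.

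Values were tested with limma 3.58.1 (R 4.3.3) on log2(value + 1), with a variance trend, for genes reaching 1 in 3 libraries or more of the tissue, 12 libraries of a tissue per fit or all 24 for the tissue difference, Benjamini-Hochberg over all genes, threshold 0.05. Log2 changes understate those of low genes. edgeR 4.0.16 on the recovered reads was an alternative. Counts at an unadjusted p below 0.05 have no share of all genes beside them, because that share was not counted. Fits of 2.25 against 0.1 ppm were tested on simulated counts with changes of known size. In liver limma recovered 2% of 1.25-fold, 42% of 1.5-fold and 84% of 2-fold changes. In brain it recovered 8%, 50% and 96% of them. A gene not called can thus still have changed by 1.5-fold or less. The 36 genes, the other lists and the tests were chosen with earlier results of these data known. Values by library are given for Ern1, Eif2ak3, Atf6, Xbp1, Hspa5 and up to 12 called genes with the smallest p per comparison, and for others named after their values were seen.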

Additional observations from a re-analysis of the deposited data

Results flagged for a closer look

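4 genes had a change at 2.25 against 0.1 ppm that differed between liver and brain in the test of the difference itself (limma, Benjamini-Hochberg over 21889 genes). The difference, liver minus brain, was 1.59 (SE 0.33, adjusted p = 0.0106) for Syvn1, where liver changed by 1.71 and brain by 0.12. For Ern1 it was 0.88 (SE 0.18, adjusted p = 0.0118), with 0.88 in liver and 0.00 in brain. For Sel1l it was 0.81 (SE 0.18, adjusted p = 0.0178), with 0.89 in liver and 0.07 in brain. For Hyou1 it was 1.21 (SE 0.31, adjusted p = 0.0423), with 1.45 in liver and 0.24 in brain. Clock genes differed between the same liver groups, and with their components as covariates none of the 4 was called. Diet explained 66.3% and 94.1% of the variance of these components in liver and 53.4% and 80.8% in brain. Diet and clock-gene levels therefore cannot be told apart in that fit.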

How the results depend on the processing

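No paired analysis was possible because the columns of the value table carry no replicate numbers. At 2.25 against 0.1 ppm in liver the 17 called genes became 0 with 2 clock components as covariates. The other 19 alternatives gave 12 to 19. Diet explained much of the variance of the clock components in both tissues. Calls lost with them, here and below, therefore cannot tell diet from clock-gene levels. At 0.4 against 0.1 ppm the 1 call became 0 without a filter, without the variance trend and with the clock components, and 5 with only the 6 libraries compared; leaving out 1 library gave 0 to 2. At 0 against 0.1 ppm the 9 calls became 4 without a filter, 2 without the variance trend and 0 with the clock components; leaving out 1 library gave 4 to 18, and quantile normalization gave 13. That scaling moved the split over all genes from 345 of 1161 calls higher to 445 of 1077. In brain at 2.25 against 0.1 ppm the 2 calls became 0 without a filter, without the variance trend, with the clock components, with only the 6 libraries compared and, an alternative chosen after seeing the data, without the 2 brain libraries highest in pituitary markers; leaving out 1 library gave 0 to 3. The tissue difference had 4 calls, 2 with quantile normalization and 0 with the clock components; leaving out 1 library gave 2 (without brain 0.1 ppm a) to 7 (without liver 0.1 ppm c). The 33 genes with liver wholly above brain became 22 by share of reads. The comparisons with 0 calls (liver 2.25 against 0.4 ppm, brain 0.4 and 0 against 0.1 ppm) stayed at 0 under every alternative run. Over the 33 gene calls, 710 alternative values were computed; 567 stayed past the threshold, 143 did not and 0 changed sign. The cause was not tested. Depth was not limiting for most of these genes: Derl3 in brain, at 4.21 to 21.3 normalized reads, was the nearest to the floor.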
